A study of Rattus norvegicus with 4 samples.

Results

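Rat hepatic stellate cells that had received no siRNA were compared with stellate cells transfected with a control siRNA. The members of this comparison were the 2 arrays, of 4 in the series, whose labels call the Cy5 sample untreated, and all genes on them were examined. Each array is an Agilent oligonucleotide array on which Cy5-labelled RNA of untreated cells and Cy3-labelled RNA of control siRNA cells competed for the same probes. The first array carried RNA of 1 animal in both dyes, and the second carried RNA pooled from 3 animals in both dyes. The other 2 arrays of the series set Cy5-labelled RNA of cells transfected with an siRNA against endoglin beside the same kind of control, again for 1 animal and for a pool of 3. They entered the fit for its spread and are given side by side with the untreated arrays. From the labels it is not known if the pool included the single animal or if arrays shared a control RNA, nor do they give the rats' age or strain, the days in culture, the transfection reagent or the sequence of the control siRNA.

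Hepatic stellate cells lie between the sinusoidal endothelium and the hepatocytes, store vitamin A as retinyl esters, and turn into matrix-producing, contractile myofibroblasts in injured liver and in culture on plastic. Kupffer cells are the resident macrophages of the liver sinusoid; they are separated from stellate cells by density and adhesion, and some commonly remain in primary cultures. Transfection delivers the duplex RNA with a carrier that is taken up by endocytosis, and double-stranded RNA can be sensed by endosomal and cytosolic receptors that switch on interferon genes. A control siRNA has no intended target in the cell and serves as the baseline for the siRNA under study, so the comparison with cells that were left alone asks what the procedure itself changes.

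All ratios below are log2 of untreated over control siRNA cells, taken from the dyes named in the labels. The deposited value table has the opposite sign for both untreated arrays, with a correlation of -1 to log10 of Cy5 over Cy3, whereas on both endoglin siRNA arrays it was 1. Levels within 1 dye were therefore set beside this direction. Summed over 25 macrophage markers, the normalized Cy3 level, which is the control siRNA RNA, was 68522 on the untreated and 66446 on the endoglin siRNA array of 1 animal, and 24710 and 22393 on the pooled arrays. In Cy5 it was 117620 against 70813 and 41685 against 21507. In these sums the control siRNA channels thus lay close to each other, and the channel labelled untreated was the high one on both arrays. The marker list was drawn up with earlier results of these data known. Over all genes, the log2 difference between the 2 arrays of 1 animal had an interquartile range of 0.16 in Cy3 and 0.24 in Cy5. For the pools it was 0.24 and 0.28, so the dyes differed little there.

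Each array held 43379 gene spots. In the Cy5 channel of the untreated arrays 69.3% of them (1 animal) and 93.3% (pool) exceeded background clearly, and 62.3% and 87.2% did in Cy3; the endoglin siRNA arrays lay between 61.9% and 70.2%. A total of 25493 genes could be tested, 12087 of them with a current gene symbol. Of 18 measured stellate cell markers all were well above background in both dyes on all 4 arrays. Of 18 hepatocyte markers 10 to 18 were so in Cy3. Each array had no dye-swapped partner, so for a single ratio the dye and the treatment cannot be told apart. For 10 spike-in transcripts, which are added to both dyes at known proportions, the ratio differed between the 2 untreated arrays by 0.13 on the log2 scale in the median and by at most 0.59.

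Endoglin (Eng, the co-receptor for TGF-beta and BMP ligands that the series targets) had log2 ratios of -0.36 for 1 animal and -0.42 for the pool. Its mean of -0.39 ± 0.26 (SE, n = 2 arrays) did not pass the test across all genes (limma with Benjamini-Hochberg adjustment, adjusted p = 0.607). The endoglin siRNA arrays read -3.08 and -1.72 for the same probe. The fit shares its spread between both pairs of arrays, so most of this SE came from the gap between those 2 readings. The untreated arrays themselves were alike.

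Across all genes 181 of 25493 (0.71%) passed at an adjusted p of 0.05: 111 were higher in untreated cells (0.435%) and 70 were lower (0.275%). The higher genes reached 1.77, and 20 of them were at least 2-fold higher in the mean, whereas the lower genes ended at -1.01 with 1 gene, Bst2, at least 2-fold lower. On both arrays separately, 11 genes were at least 2-fold higher (0.0431%) and 0 were at least 2-fold lower. Across genes, the ratios of the array of 1 animal and of the pool had a correlation of 0.53, and genes are not independent replicates. At an unadjusted p under 0.05 there were 3479 genes. The count depended on which arrays entered: without the untreated array of 1 animal 34 genes passed, without the untreated pool 0 passed (1994 at an unadjusted p under 0.05), and without either endoglin siRNA array 747 passed. With the scanner software's own log ratios 0 genes passed in limma (3332 unadjusted), yet all 181 kept their sign. The spread behind these p-values was taken from both pairs of arrays and moderated across genes; it may be technical in part, and the control was never hybridized as a sample of its own.

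**Figure D1:**
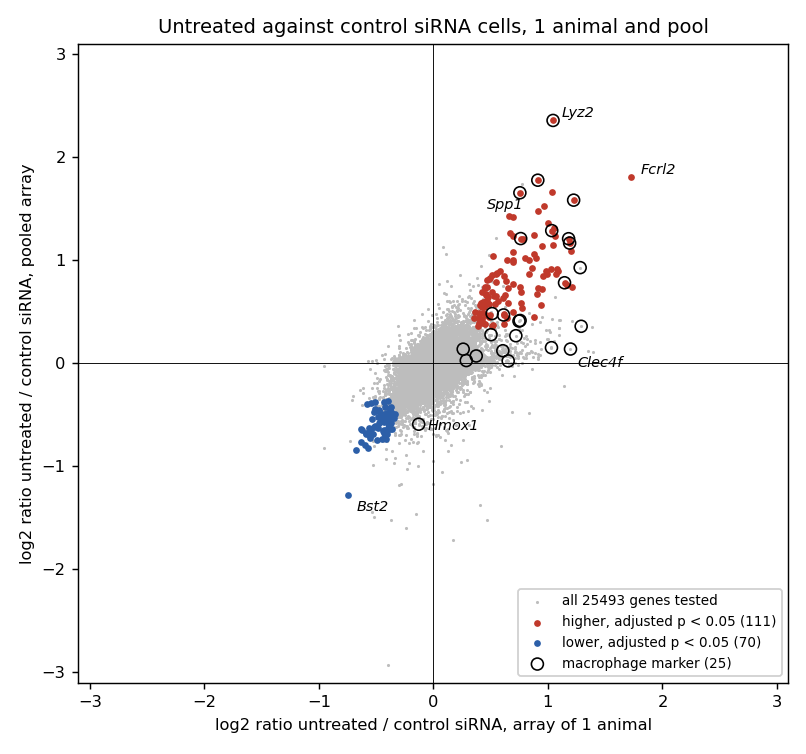
Each point is 1 of 25493 genes, with its log2 ratio of untreated to control siRNA cells for 1 animal (horizontal) and for the pool (vertical). Red and blue points are the 111 higher and 70 lower genes that passed, and open circles are 25 macrophage markers, of which 24 lie above 0 on both arrays and Hmox1 does not.

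Macrophage markers were frequent among the largest differences. Of the 15 highest genes with a symbol, 7 were on a list of markers of Kupffer cells and macrophages. That list had 32 genes, of which 25 were measured. Of the 25, 10 passed as higher in untreated cells (all genes, 0.435%) and 0 as lower (all genes, 0.275%). The median log2 ratio of the 25 was 0.59, beside 0.00 for all genes tested. On both untreated arrays 24 of the 25 were above 0, as were 29.7% of all genes. The list was drawn up with earlier results of these data known, so its count describes these arrays and gives no independent support. Whether untreated cultures held more macrophages or their macrophages more of these RNAs cannot be told apart in bulk RNA.

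The promoters of these markers were also searched for a short sequence. The genes were listed as macrophage markers, so the shares below describe the list and give no support for the ratios. GAGGAA is the core of many sites bound by PU.1, the ETS-family factor encoded by Spi1 on which macrophages depend, and it was searched on both strands (as GAGGAA or TTCCTC) in the 250 bases before the gene start in RefSeq's promoters of the assembly GRCr8. Of the 10 markers that passed 6 had an entry in the table, and 5 of these 6 (83.3%) held the letters. So did 12 of the 16 measured markers with an entry (75%), 2319 of 9867 tested genes (23.5%) and 23.2% of 27457 promoters in the table. The longer GAGGAAGT was found in 1 of the 6, in Ctss, and in 2.04% of all promoters. Of these, 4 promoters are shown 5′ to 3′ on the strand of the gene, 3 with a match close to the start and C1qa without one; capitals mark the match.
Ctss, chr2:185775146-185775395, plus strand: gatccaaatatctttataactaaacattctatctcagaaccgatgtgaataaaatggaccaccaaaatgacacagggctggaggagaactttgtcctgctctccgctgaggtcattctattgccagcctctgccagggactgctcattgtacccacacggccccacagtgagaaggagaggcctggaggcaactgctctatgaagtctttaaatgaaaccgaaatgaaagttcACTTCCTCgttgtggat
Cd68, chr10:54882442-54882691, minus strand: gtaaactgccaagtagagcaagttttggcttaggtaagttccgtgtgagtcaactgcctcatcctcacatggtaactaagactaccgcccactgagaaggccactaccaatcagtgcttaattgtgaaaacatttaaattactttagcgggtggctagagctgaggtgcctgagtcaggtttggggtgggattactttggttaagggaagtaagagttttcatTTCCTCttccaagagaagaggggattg
Lyz2, chr7:54798012-54798261, minus strand: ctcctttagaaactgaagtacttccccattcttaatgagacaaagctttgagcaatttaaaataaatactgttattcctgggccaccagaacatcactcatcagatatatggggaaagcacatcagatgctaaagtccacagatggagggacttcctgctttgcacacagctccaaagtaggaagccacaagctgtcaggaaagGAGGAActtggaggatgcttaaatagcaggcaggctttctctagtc
C1qa, chr5:154419934-154420183, minus strand: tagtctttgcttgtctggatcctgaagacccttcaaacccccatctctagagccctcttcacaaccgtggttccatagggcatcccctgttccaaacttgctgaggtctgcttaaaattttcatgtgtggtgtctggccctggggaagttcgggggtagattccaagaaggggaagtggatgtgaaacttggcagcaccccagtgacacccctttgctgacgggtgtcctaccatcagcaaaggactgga
The matches begin 17, 27 and 46 bases before the start of Ctss, Cd68 and Lyz2. They are matches of letters only, and binding was not measured.

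Among secreted and lysosomal products, Lyz2, the lysozyme of macrophages and neutrophils, had log2 ratios of 1.04 (1 animal) and 2.36 (pool), a mean of 1.70 ± 0.25 (SE, n = 2; adjusted p = 0.0390). The scanner signals above background show both channels of this ratio. In Cy3 Lyz2 read 6094 on the untreated and 6325 on the endoglin siRNA array of 1 animal, and in Cy5 38259 and 14924. On the pooled arrays it was 1034 and 901 in Cy3 against 20737 and 1248 in Cy5. The 2 control readings were alike within each source of RNA, and the untreated Cy5 reading stood above that of endoglin siRNA cells in both.

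Ctss, the lysosomal cysteine protease cathepsin S of antigen-presenting cells, read 1.19 and 1.17, the closest pair among the leading markers, for a mean of 1.18 ± 0.07 (adjusted p = 0.00587). A second probe for Ctss gave a mean of 1.00. Cd68, a lysosomal membrane glycoprotein of macrophages, read 0.76 and 1.21 (adjusted p = 0.0173). Laptm5, a lysosomal membrane protein of blood cells, read 0.76 and 1.66 (adjusted p = 0.0390).

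Complement C1q, made in the liver mainly by macrophages, was represented by all 3 of its chains. C1qa read 1.03 and 1.29 (mean 1.16 ± 0.08, adjusted p = 0.00652), and a second probe gave 1.20. C1qb read 1.14 and 0.78 and passed as well (adjusted p = 0.0139). C1qc, at 1.03 and 0.15, did not (adjusted p = 0.218); its 2 arrays were far apart.

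Receptors and their adaptors were the next group. Aif1, an actin-binding protein of activated macrophages, read 1.22 and 1.58 (mean 1.40, adjusted p = 0.0157). Tyrobp, the DAP12 adaptor that carries the signal of Trem2, read 0.91 and 1.78 (mean 1.34, adjusted p = 0.0332), while a dimmer second probe for Tyrobp had a mean of 0.19. Fcgr1a, the high-affinity receptor for IgG, read 1.18 and 1.21 (mean 1.20, adjusted p = 0.0148). Fcgr2b, the inhibitory IgG receptor that sinusoidal endothelial cells also carry, was the tenth marker to pass, with 0.61 and 0.47.

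The 15 markers that did not pass were mostly dimmer. Adgre1, which encodes the F4/80 antigen, read 1.28 and 0.93 (adjusted p = 0.0658). The Kupffer cell receptors Vsig4 (1.29 and 0.36) and Clec4f (1.20 and 0.14) read higher on the array of 1 animal, a gap that the background correction moves. Spi1 read 0.50 and 0.28, the CSF1 receptor gene Csf1r 0.65 and 0.02, and the scavenger receptor gene Cd163 0.29 and 0.03. Hmox1, the haem-degrading enzyme of Kupffer cells that many stressed cells make, was the single member below 0 on both arrays (-0.13 and -0.59). Over the 25 markers the median was 0.76 for 1 animal and 0.42 for the pool. In 18 of them the array of 1 animal was the higher one.

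The pooled value depends on the background correction. On the untreated pool, 6 spots have a local background more than 100 units above their own signal, and the normexp method fits its background to all spots, these included. Without such spots the median of the 25 markers on the pool was 0.93 in place of 0.42, that of 1 animal stayed at 0.76, and 19 of 25 markers passed (all genes higher, 1.07%). The array of 1 animal was then the higher one for 10 of the 25, and for 11 with the scanner software's log ratios. The pooled value of Vsig4 went from 0.36 to 1.07 without the disturbed spots and to 2.15 with the scanner software, which put 1 animal at 1.37. That of Clec4f went from 0.14 to 0.52 and 0.90, and stayed below 1 animal. Those log ratios gave medians of 0.85 and 1.06; with them 0 markers passed in limma, and 23 of the 25 were higher at an unadjusted p under 0.05. Without the untreated array of 1 animal 6 of the markers passed, without the untreated pool 0, and without either endoglin siRNA array 16.

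**Figure D2:**
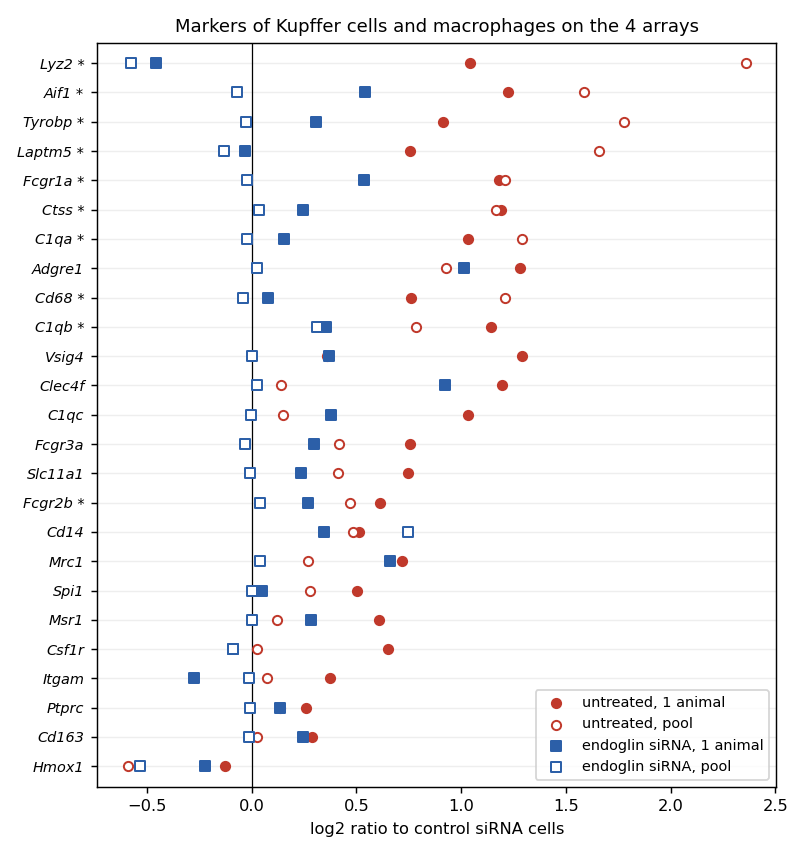
Log2 ratio to control siRNA cells of the 25 measured macrophage markers on each of the 4 arrays, with untreated cells in red, endoglin siRNA cells in blue, 1 animal filled and the pool open; an asterisk marks the 10 genes with an adjusted p under 0.05 in untreated cells. Lyz2 reached 2.36 on the untreated pool and had negative ratios on both endoglin siRNA arrays.

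The endoglin siRNA cells, which were transfected like the control, had the lower mean ratio in 24 of the 25 markers, as in 41.4% of all genes tested. The exception was Cd14, the co-receptor for bacterial lipopolysaccharide, with 0.51 and 0.48 in untreated beside 0.35 and 0.75 in endoglin siRNA cells; it was also the 1 marker that passed in endoglin siRNA against control siRNA cells (adjusted p = 0.0178). Both sets of ratios share the kind of control, so they are given side by side and their likeness is no result. The 25 markers had a median of 0.27 (1 animal) and -0.01 (pool) in endoglin siRNA cells, beside 0.76 and 0.42 in untreated cells. The difference of the 2 ratios, in which a bias of the dye common to both kinds of array cancels, passed in 26 of 25493 genes (0.102%), 15 of them higher in untreated cells (0.0588%). Of these 15, 2 were on the macrophage list. For C1qa the untreated ratios of 1.03 and 1.29 stood beside 0.15 and -0.02, a difference of 1.09 ± 0.12 (adjusted p = 0.0381). For Ctss they stood beside 0.24 and 0.03, a difference of 1.04 ± 0.10 (adjusted p = 0.0260). Lyz2 had the largest difference of the list (2.22, with -0.46 and -0.57 in endoglin siRNA cells), which did not pass (adjusted p = 0.127); its untreated arrays were far apart.

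Several of the highest genes outside the marker list are known from macrophages or other leukocytes. They are single genes named for their size, with no list behind them. Fcrl2, an Fc receptor-like protein of leukocytes, led all genes with 1.73 and 1.81, a mean of 1.77 ± 0.11 or 3.40-fold (adjusted p = 0.00587). In endoglin siRNA cells it read 0.51 and 0.00, and the difference of 1.51 passed (adjusted p = 0.0376). Trem2, a lipid-sensing receptor of macrophages, read 1.03 and 1.67 (adjusted p = 0.0231). Coro1a, the actin regulator coronin of leukocytes, read 0.96 and 1.53 (adjusted p = 0.0147), and Itgb2, the beta chain of leukocyte integrins, 1.20 and 1.09 (adjusted p = 0.0157). In each of these genes both untreated arrays lay above both endoglin siRNA arrays, as they did in 11.6% of all genes tested. Mmp12, the macrophage elastase, read 0.66 and 1.43 (adjusted p = 0.0395).

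Genes of MHC class II were taken by name after values were seen (Cd74 and symbols that start with RT1-B or RT1-D). Of the 6 tested, 3 passed as higher (all genes, 0.435%), a count that depends on this choice and gives no independent support. Cd74, the invariant chain, read 0.99 and 0.87 (mean 0.93 ± 0.06, adjusted p = 0.00587) against -0.01 and -0.03 in endoglin siRNA cells, and the difference of 0.95 passed (adjusted p = 0.0256). The class II chains RT1-Da (1.16 and 0.76, adjusted p = 0.0173) and RT1-Db1 (0.88 and 0.45, adjusted p = 0.0393) passed against control siRNA. Dimmer second probes for RT1-Da and RT1-Db1 had means of 0.45 and 0.58. Other myeloid genes, picked because they passed, were Folr2 (0.90), Pf4 (0.89) and C5ar1 (0.82), a folate receptor of resident macrophages, a platelet and macrophage chemokine and the receptor of complement C5a. In the class I pathway 18 of 21 measured genes were below 0 on both arrays (all genes, 31.9%) with a median of -0.18, but 1 passed, the chaperone gene Calr at -0.47. The class I light chain B2m read 0.49 and 1.05 (adjusted p = 0.0649), while its dimmer probes had means of 0.47, 0.35 and 0.08.

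Spp1, the secreted phosphoprotein osteopontin, which macrophages, cholangiocytes and activated stellate cells make, read 1.00 and 1.36 in untreated cells (mean 1.18 ± 0.11, adjusted p = 0.0139). In endoglin siRNA cells it was below the control, at -0.31 and -0.66, and the difference of 1.67 ± 0.16 passed (adjusted p = 0.0256). Its Cy3 signals were 9363 and 10949 on the untreated and endoglin siRNA arrays of 1 animal, and 1655 and 1563 on the pools. The Cy5 signals were 59652 and 30192, and 15697 and 2301. The macrophage markers moved with all of these genes, and the part of macrophage RNA in their ratios was not tested. Bhlhe41, a repressor of the circadian clock, completed the 6 genes that passed in both comparisons, with 0.76 and 0.74 beside 0.03 and 0.02, although a dim second probe for it had a mean of -0.01.

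Few markers of other liver cell types passed. Median log2 brightness was 7.70 for the endothelial, 7.80 for the hepatocyte and 7.98 for the cholangiocyte list. It was 7.74 for lymphocytes and neutrophils and 8.47 for portal fibroblasts and mesothelial cells, beside 9.996 for the macrophage list. The macrophage markers C1qc (8.15), Ptprc (7.76) and Cd163 (7.75) did not pass either. The counts below therefore do not show a difference specific to macrophages, and the part of brightness in them was not tested. Of 16 measured endothelial markers 1 passed, Fcgr2b, which is on the macrophage list as well; the junction genes Pecam1 and Cdh5 read -0.03 and 0.04, and -0.06 and 0.08. Pecam1 was well above background on 1 of the 2 untreated arrays in Cy5 and on 0 in Cy3. Of 18 hepatocyte markers 0 passed in limma (1 at an unadjusted p under 0.05), and the same was true of 15 markers of portal fibroblasts and mesothelial cells (2 unadjusted). Spp1 was the single cholangiocyte marker of 10 to pass and Cd74 the single lymphocyte and neutrophil marker of 10, while the T cell receptor chain gene Cd3d read 0.15 and -0.10. The transport protein gene Tf (1.35 and 0.12) was the largest hepatocyte value, and its arrays disagreed.

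Abundant transcripts formed another group among the higher genes. Of the 111 higher genes, 52 had a mean brightness of at least 15 on the log2 scale, a level that 432 of 25493 genes (1.69%) reached. Of these 432 bright genes 12.0% passed as higher, against 0.235% of the 25061 others, and 0 of the 70 lower genes were this bright. The 52 had median ratios of 0.55 and 0.74 in untreated cells and of 0.55 and 0.44 in endoglin siRNA cells. For the 59 dimmer higher genes the medians were 0.77 and 0.76 beside 0.28 and 0.00. The difference between the 2 kinds of array passed in 0 of the 52 and in 6 of the 59 (all genes, 0.102%). Both sets were chosen by a high untreated ratio, which favours a positive difference. These medians and counts therefore describe the sets and give no independent support. With the scanner software's log ratios the median of the 52 was 0.33 in place of 0.66 and that of the 59 was 1.19 in place of 0.84. The part of brightness in these ratios was not tested.

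**Figure D3:**
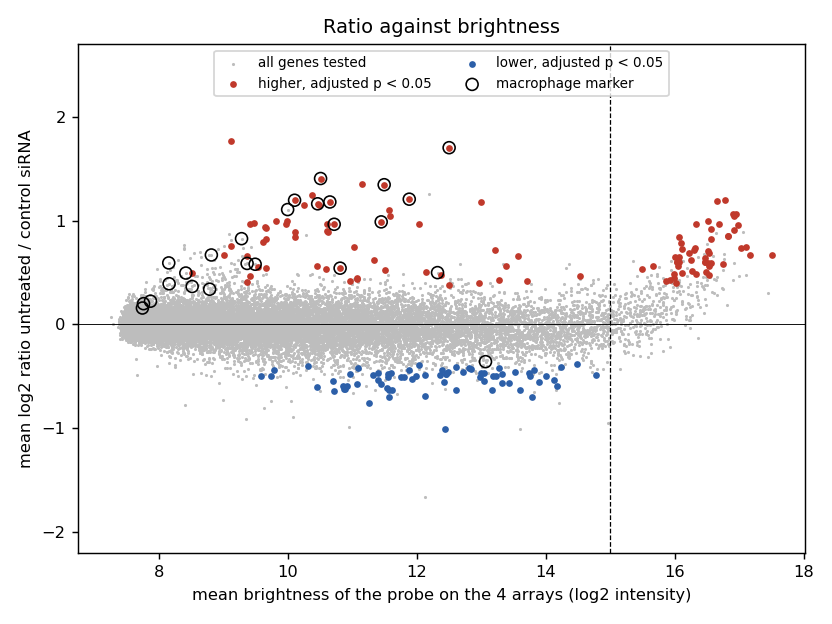
Mean log2 ratio of untreated to control siRNA cells over the 2 arrays (vertical) against the mean log2 brightness of the probe on the 4 arrays (horizontal), for all genes tested; the dashed line is at 15. The 10 macrophage markers that passed lie between 10.1 and 12.5, and 52 of the 111 higher genes lie to the right of the line.

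Matrix and stellate cell genes were among the bright ones. Of 18 measured stellate cell markers 3 passed as higher (all genes, 0.435%) and 0 as lower. Their median was 0.22, with 0.13 for 1 animal and 0.32 for the pool, beside 0.14 and 0.23 in endoglin siRNA cells. Timp1, the inhibitor of matrix metalloproteinases, read 0.91 and 1.48 (mean 1.20 ± 0.12, adjusted p = 0.0157) beside 0.60 and 0.53 in endoglin siRNA cells. Bgn, the proteoglycan biglycan, read 1.05 and 1.32 (mean 1.19 ± 0.08, adjusted p = 0.00587) beside 0.85 and 0.97. Col3a1, the chain of fibrillar collagen III, read 0.70 and 1.43 (mean 1.06 ± 0.15, adjusted p = 0.0343) beside 0.76 and 0.67. None of the 3 differed between the 2 kinds of cells past the threshold (adjusted p = 0.350, 0.589 and 0.771).

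Of 43 collagens and matrix glycoproteins 4 passed as higher (all genes, 0.435%) and 0 as lower, with a median of 0.02. Besides Bgn, Spp1 and Col3a1 this was Mgp, the calcification inhibitor matrix Gla protein (0.67 and 1.27, beside 0.31 and 0.05). Col1a1, the main chain of collagen I, read -0.25 and -0.14 and did not pass (adjusted p = 0.260). Of 27 matrix proteases and inhibitors 3 passed as higher (all genes, 0.435%), namely Timp1, Mmp12 and Timp2 (0.59). Of 26 targets of TGF-beta and Smad3 1 passed as higher (all genes, 0.435%), again Timp1, and the median was -0.01.

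Of 28 genes of quiescence and retinoid handling 2 passed as higher (all genes, 0.435%). Of these Cygb, the globin of stellate cells, read 0.79 and 1.21 (adjusted p = 0.0148) beside 0.72 and 0.79 in endoglin siRNA cells. Of 27 myofibroblast and contractile genes Vim, the intermediate filament vimentin, passed at 0.41 and 0 passed as lower. The median of the 27 was 0.06. On both arrays 12 were above 0 (44.4%, all genes 29.7%) and 10 were below 0 (37.0%, all genes 31.9%). At an unadjusted p under 0.05 in limma 10 were higher and 7 lower. The 4 members with a mean past 0.5 in size were all negative, and none of them passed. Myh11, smooth muscle myosin, read -0.54 and -1.44 (adjusted p = 0.0646) beside -1.57 and -1.70 in endoglin siRNA cells. A dimmer second probe for Myh11 had a mean of -0.15 in untreated cells. Cnn1, the actin-binding calponin, read -0.96 and -0.83 (adjusted p = 0.119) beside -2.06 and -0.97. Des, the muscle filament desmin, read -0.53 and -0.99 (adjusted p = 0.0510) beside -0.43 and -0.78. Flnc, the muscle filamin, read -0.73 and -0.75 (adjusted p = 0.352) beside -2.34 and -0.72. For Cnn1 and Flnc the untreated arrays were close to each other. Most of the spread in their tests came from the endoglin siRNA arrays. Without the disturbed spots 5 of the 27 passed as lower, beside 0.741% of all genes, namely Cnn1, Des, Flna, Flnc and Lmod1. In that setting 1 passed as higher, beside 1.07% of all genes. Acta2, smooth muscle actin, had no probe that could be named.

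Of 71 cytosolic ribosomal protein genes 9 passed as higher (all genes, 0.435%) and 0 as lower. Of the 71, 52 (73.2%) were above 0 on both arrays, beside 29.7% of all genes. Rps23 was the highest with 0.95 and 1.14, beside 0.85 and 0.92 in endoglin siRNA cells, followed by Rpl8 (0.83 and 0.87, beside 0.73 and 0.56). The median of the 71 was 0.17, but -0.0028 with the scanner software's log ratios, and their median brightness of 15.8 lay above the bound of 15. Of 24 actin and cytoskeletal genes 3 passed as higher (all genes, 0.435%). Tmsb4x, the actin-sequestering thymosin beta 4, read 1.02 and 0.91 beside 1.39 and 1.20. Actb read 0.76 and 0.58 beside 0.62 and 0.34. The annexin gene Anxa1 read 0.46 and 0.67 beside 0.69 and 0.57, and a second probe for it had a mean of 0.24. The lysosomal cathepsins Ctsb (0.84) and Ctsd (0.60) passed and were bright, and Adm, the vasodilator peptide adrenomedullin, passed at 0.60 beside 0.89 and 0.78. Related ribosomal and actin genes have near-identical copies, so their probes may share signal.

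**Figure D4:**
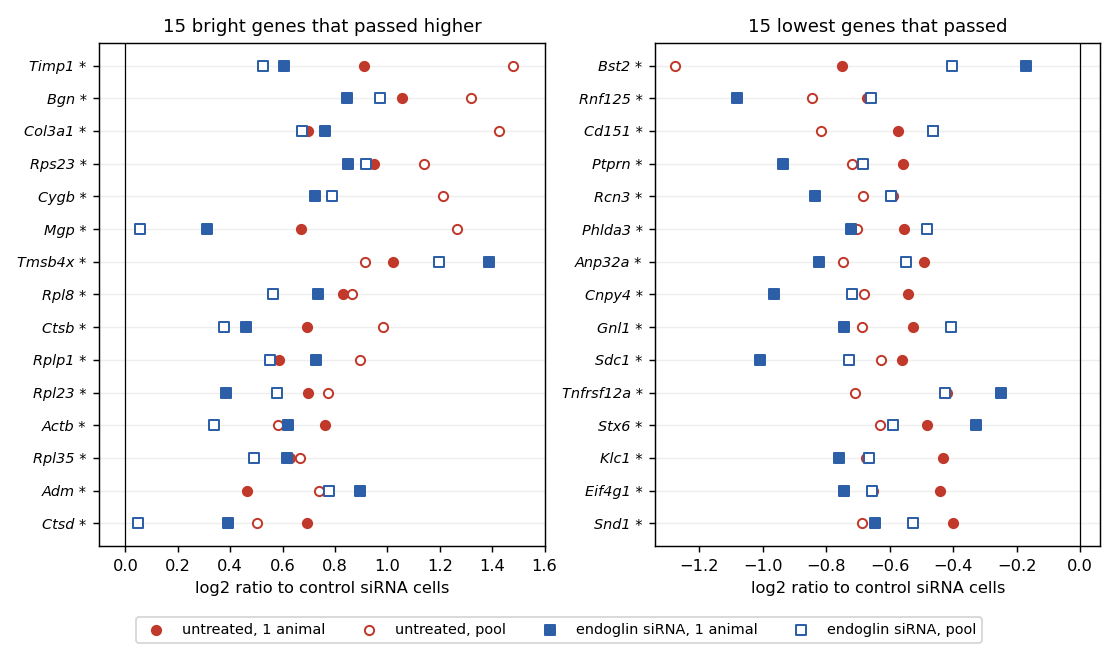
Log2 ratio to control siRNA cells on each of the 4 arrays for 15 named genes at or above the brightness bound that passed as higher (left) and for the 15 lowest genes that passed (right), with symbols as for untreated (red) and endoglin siRNA (blue) cells, 1 animal filled and the pool open. Most rows show all 4 arrays on the same side of 0 and close together; in Bst2 the untreated arrays lie at -0.75 and -1.27 and the endoglin siRNA arrays at -0.17 and -0.40.

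The 70 lower genes were smaller in size and ran from -1.01 to -0.38. Their medians were -0.44 (1 animal) and -0.57 (pool) in untreated cells and -0.66 and -0.58 in endoglin siRNA cells. The difference passed in 0 of them (all genes, 0.102%). They were chosen by a low untreated ratio, which bears on this difference. The pool had the larger size in 60 of the 70. Bst2, the interferon-induced membrane protein tetherin, was the lowest with -0.75 and -1.27 (mean -1.01 ± 0.12, adjusted p = 0.0266). A second probe for Bst2 had a mean of -0.85. Its endoglin siRNA ratios of -0.17 and -0.40 were nearer to 0 than both untreated ones, yet the difference of -0.72 did not pass (adjusted p = 0.271).

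For the other lower genes the ratios of both kinds of cells follow side by side. Rnf125, an E3 ubiquitin ligase that acts on RNA sensors, read -0.67 and -0.85 (adjusted p = 0.0336) beside -1.08 and -0.66; a dim second probe had a mean of 0.10. The tetraspanin gene Cd151 read -0.57 and -0.82 (adjusted p = 0.0173) beside -0.46 on both. Sdc1, the proteoglycan syndecan 1, read -0.56 and -0.63 (adjusted p = 0.0332) beside -1.01 and -0.73. Phlda3, a p53 target that restrains AKT, averaged -0.63, and Rcn3, a calcium-binding protein of the endoplasmic reticulum, averaged -0.64. Others were Ptprn (-0.64), Anp32a (-0.62), Cnpy4 (-0.61), Gnl1 (-0.61), Stx6 (-0.56), Tnfrsf12a (-0.56), Klc1 (-0.55), Eif4g1 (-0.55) and Snd1 (-0.54). For Klc1 and Eif4g1 another probe read 0.13 and 0.05, so the fall of these 2 rests on the brighter probes.

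The lists for responses that transfection could bring about held few genes that passed. Over all genes 0.71% passed, so lists of this size may hold few or none. Their counts therefore do not show that a response was absent. Of 38 interferon response genes Bst2 alone passed (6 lower and 1 higher at an unadjusted p under 0.05). The median was -0.09 (-0.01 for 1 animal and -0.17 for the pool). On both arrays 16 (42.1%) were below 0, beside 31.9% of all genes, and 3 (7.89%) were above 0, beside 29.7%. Of 23 genes of nucleic acid sensing and RNA interference 0 passed (6 at an unadjusted p under 0.05), with a median of 0.00 and values from -0.23 to 0.24. Of the 38 interferon response genes Bst2 was the 1 gene with a mean past 0.5 in either direction.

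Of 33 inflammatory cytokines and chemokines 0 passed, beside 0.71% of all genes (5 unadjusted, all higher). Il1b, interleukin-1 beta, read 1.39 and 0.11 in untreated and 1.24 and 0.02 in endoglin siRNA cells, so the array of 1 animal was the high one in both. Il18 read 1.01 and 0.33, and the monocyte chemokine Ccl2 read 0.59 and -0.81, with opposite signs on the 2 arrays. Of 23 genes of sterol synthesis 0 passed (2 unadjusted); of 24 heat shock genes 0 (5 unadjusted); and of 42 cell cycle genes 0 (6 unadjusted). The largest members there were Insig1 (0.25), Cryab (0.34, and -0.03 with the scanner software's log ratios) and Ccnd1 (0.40).

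Single members passed elsewhere (all genes in either direction, 0.71%). In the integrated stress and unfolded protein response 1 of 24 passed, Calr. Among oxidative stress genes 1 of 29 passed, the glutathione peroxidase gene Gpx3 (-0.49), and among p53 targets 1 of 20, Phlda3. Of 31 immediate-early genes 2 passed as lower (all genes, 0.275%). Dusp1, a phosphatase of MAP kinases, read -0.38 and -0.60 beside -0.33 and -0.30 in endoglin siRNA cells. Junb read -0.38 and -0.64 beside -0.58 and -0.50. In all, 6 of the 22 theme lists held no gene that passed. As 0.71% of all genes passed, lists of this size may well hold none, so this count is no result about these themes.

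**Figure D5:**
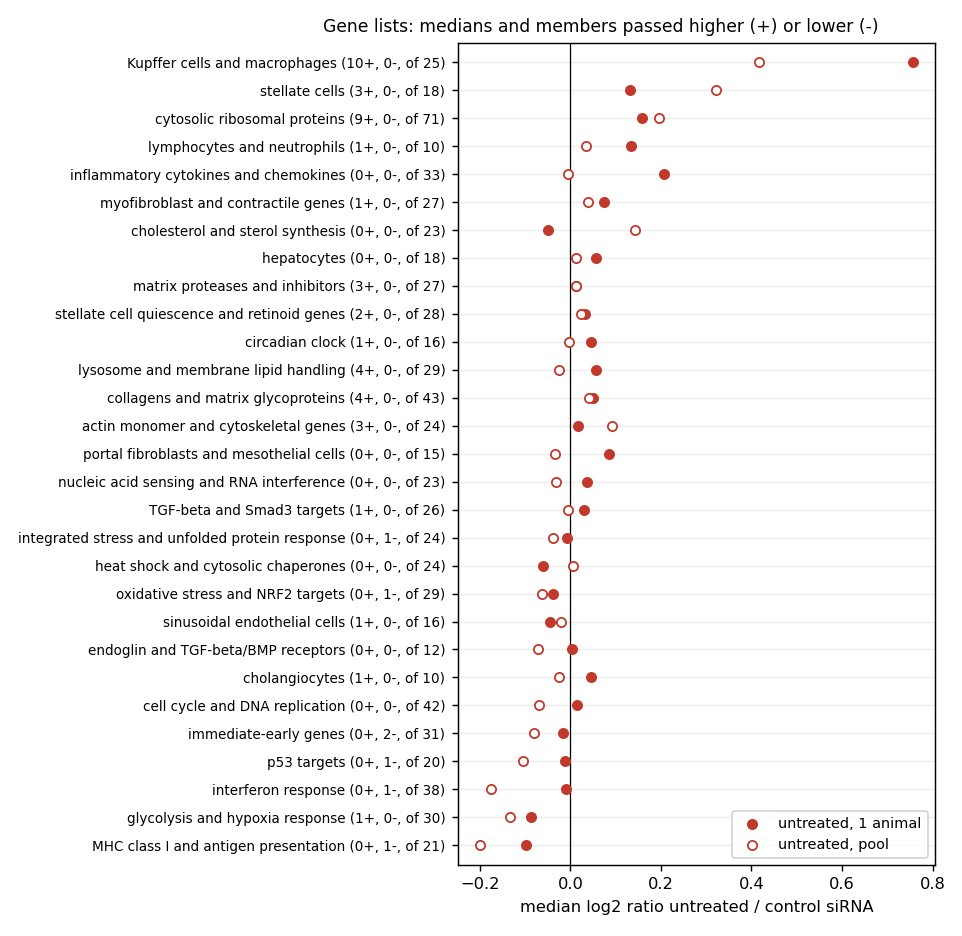
Median log2 ratio of untreated to control siRNA cells over the measured members of each of 29 gene lists, for 1 animal (filled) and for the pool (open), with the members passed higher and lower beside each name. The macrophage list stands at 0.76 and 0.42; the medians of all other lists lie between -0.20 and 0.32.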

How the data were processed

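RNA came from an RNeasy preparation and an Agilent low-input amplification, per the labels' protocols. Per the file headers, the authors read the scans with version 9.5.1.1 of Agilent Feature Extraction. The deposited mean and background signals are intensity values, and the deposited log ratios and value table are log10 of Cy5 over Cy3, turned in sign on the untreated arrays in the table. Signals were corrected with normexp (offset 50) on the local background and normalized within arrays by loess; control spots (1639) had weight 0, and outlier spots (189 and 204 on the untreated arrays) were left out. Probes were kept when well above background in 1 dye on at least 2 arrays (30008 of 41012, of which 176 lacked a usable spot on an array), and the brightest probe stood for a gene. Names were updated with RefSeq's gene table for GRCr8: 6619 genes matched by accession, 3224 by symbol, 2263 by synonym and 13387 not. All 4 arrays lie on 1 slide.

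Ratios were fitted with limma 3.58.1 in R 4.3.3 (and version 1.17.8 of data.table) as 2 group means over 4 arrays with 2 residual and 5.28 prior degrees of freedom; the fit was checked on simulated data. Benjamini-Hochberg adjustment ran over all genes at 0.05. The members and lists were chosen with earlier results of these data known. Named were Eng, the 15 highest and 15 lowest genes that passed and have a symbol, genes that passed in both comparisons, up to 6 members of a list that passed (or else the 2 largest), and any marker. RT1-Da, RT1-Db1, Folr2, Pf4, C5ar1, B2m, Myh11, Cnn1, Flna, Flnc, Lmod1, Ccl2 and Il1rl1, and which markers to name beyond those that passed, were chosen after values were seen; some genes that the rule names are not reported here. The 15 alternatives tried concern background, normalization, filter, probes, source of RNA and single arrays. The number of arrays, 2 behind each value, limits the precision.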

Additional observations from a re-analysis of the deposited data

Results flagged for a closer look

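In 7 named genes the ratio to control siRNA cells differed between untreated and endoglin siRNA cells in a test of the difference itself (limma, adjusted over all 25493 genes). In 6 of them the untreated cells were also above the control. The naming rule takes genes that passed in both comparisons, so this count follows from it. Over all genes the difference passed in 26 (0.102%), 18 of them with a symbol, and only the same 6 also passed against the control. The difference, untreated minus endoglin siRNA on the log2 scale, was 1.67 for Spp1 (adjusted p = 0.0256), 1.51 for Fcrl2 (0.0376), 1.09 for C1qa (0.0381), 1.04 for Ctss (0.0260), 0.95 for Cd74 (0.0256) and 0.72 for Bhlhe41 (0.0498). Both untreated arrays lay above both endoglin siRNA arrays in each of these genes, as in 11.6% of all genes tested. The choice of genes by a positive difference favours this order, so it adds no support. In Spp1 the endoglin siRNA arrays were below 0, and in the other 5 they lay between -0.03 and 0.51. The seventh was Hsp90ab1, a cytosolic chaperone, with a difference of 1.19 (adjusted p = 0.0226). Its untreated ratios of -0.27 and -0.29 did not pass against the control (adjusted p = 0.101), and its endoglin siRNA ratios were -1.42 and -1.52. Neither group of arrays is large enough for a check of single outlying arrays.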

How the results depend on the processing

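The count of 181 genes that passed against control siRNA became 514 without background correction, 463 without the disturbed spots, 356 without the filter on dim probes (35392 genes tested) and 747 in a fit of the untreated arrays only. It was 0 with the log ratios of Feature Extraction, with the deposited value table, with median centring and with scaling between arrays, where 3332, 3334, 73 and 580 genes had an unadjusted p under 0.05; why was not tested. Leaving out 1 array gave 0 to 747, and 0 to 427 for the difference from the endoglin siRNA ratio. That difference, 26 genes at first, came to 170, 198 and 47 under the first 3 settings, 17 with the mean of a gene's probes, and 0 under each of the 4 settings that gave 0 before. The 10 macrophage markers that passed became 19 without background correction, 19 without the disturbed spots, 16 in the untreated arrays only, 0 under the same 4 settings, and 0 to 16 when 1 array was left out. The median over all macrophage markers measured in a setting (20 to 26 of them), passed or not, stayed between 0.42 and 1.14 in every setting run.

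With the source of RNA (1 animal or pool) as a replicate block, 1035 genes, 20 macrophage markers and 267 differences passed. The labels do not say that sources were shared between groups, and the correlation of deviations between same-source arrays was 0.29, so the pairing is not used. A left-out endoglin siRNA array leaves a lone array that adds no spread.

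Of the genes named, the sign turned for Cryab (-0.026 with both Feature Extraction and the deposited table) and, with median centring, for Ttr (-0.12), Pecam1 (-0.21), Cdh5 (-0.084), Ccl2 (0.10) and Col1a1 (0.045). When either untreated array was left out, the values ran from -0.85 to 0.13 for Fbln2, from -0.81 to 0.59 for Ccl2, from -0.033 to 0.035 for Pecam1 and from -0.055 to 0.077 for Cdh5. None of these genes passed in untreated against control siRNA cells or in the difference between the 2 kinds of array. Col1a1 and Cryab did pass in endoglin siRNA against control siRNA cells (limma, adjusted p = 0.0032 and 0.0287).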

Other observations

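The largest ratio of any gene on a single untreated array was that of Il1rl1, which encodes the interleukin-33 receptor ST2, at -2.93 on the pool, with -0.40 on the array of 1 animal. The endoglin siRNA arrays read 0.08 (1 animal) and -1.85 (pool), so the pool was the low one in both kinds of cells. Its mean of -1.66 did not pass (adjusted p = 0.273), a second, dim probe had a mean of -0.06, and the gene was singled out after its values were seen.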
